A study of Homo sapiens with 8 samples.

Results

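The comparison of unmodified brazilin with untreated cells covered every row of the authors' deposited table for that compound. That table lists 2885 genes, of the 2998 genes that appear in any of the 3 tables of the study. RNA sequencing was done on MDA-MB-231, an established human breast cancer cell line that lacks estrogen receptor, progesterone receptor and amplified HER2 and has a mesenchymal-like shape. The brazilin group was 2 samples of cells given 20 µM brazilin from the time of seeding, with fresh compound each day, and harvested at 48 h. The untreated group was 2 samples of the same line without compound. The study's other 4 samples received methylated or acetylated brazilin and were not used. The sources used here do not say whether untreated cells received the solvent of the compound.

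Brazilin is the phenolic compound of sappanwood and brazilwood that oxidises to the red dye brazilein. In the endoplasmic reticulum (ER), newly made secreted and membrane proteins enter through a channel, receive sugar chains and disulfide bonds, are checked for folding, and leave in coated vesicles for the Golgi. Mitochondria are built from a few proteins made inside them on their own ribosomes and many made in the cytosol and imported.

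The table holds the mean FPKM of each group, a fragment count scaled to transcript length and library size. Single samples and library totals are not among its columns, which leaves the depth unknown and allows no standard deviation. Each ratio below is log2 of the brazilin mean over the untreated mean. The lowest value listed was 0.01 FPKM, at which 5 genes stood with brazilin and 50 in untreated cells. Those 55 genes have a direction but no ratio, which leaves 2830 genes with one. All listed genes passed the authors' own test, with q-values under 0.05 in the authors' deposited table. The labels do not say whether a group's 2 samples were separate cultures, and these q-values then measure only their spread, which may be technical. Of the markers of the mesenchymal-like line 2 of 8 were listed. The caveolin gene CAV1 stood at 276 FPKM with brazilin and 180 in untreated cells, and the adhesion receptor gene CD44 at 226 and 132 FPKM. None of 8 luminal, 7 fibroblast or 3 adipocyte markers was listed. The basal markers TP63 (3.33 FPKM with brazilin and 0.70 in untreated cells) and KRT14 (0.51 and 0.05 FPKM), the leukocyte marker CD68 (81.6 and 50.8 FPKM) and the endothelial markers KDR (1.13 and 0.595 FPKM) and PECAM1 (0.905 and 1.35 FPKM) were listed, and their part in the results was not tested. A marker that did not change is not in the table, so this check of the label is limited. In bulk RNA, fewer cells of a kind and less RNA per cell cannot be told apart.

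By the ratio of FPKM means, 1380 genes were higher with brazilin, 47.8% of those listed, and 1505 were lower, 52.2%. Large ratios were mostly upward. At least 2-fold higher were 569 of the genes with a ratio (20.1%), and at least 2-fold lower were 196 (6.93%). Under 1 FPKM in untreated cells these counts were 358 higher and 49 lower. At 10 to 100 FPKM in untreated cells they were 52 and 51, and at 100 FPKM or more 3 and 11. With genes placed by their FPKM with brazilin instead, the counts in the last 2 strata were 94 and 25, and 20 and 7. The direction turned with the untreated level. Among the 573 genes under 1 FPKM in untreated cells 82.2% were higher with brazilin, among the 1164 genes at 1 to 10 FPKM 42.4%, among the 1004 genes at 10 to 100 FPKM 36.8%, and among the 144 genes at 100 FPKM or more 31.9%. The median log2 ratios of these strata were 1.33, -0.41, -0.44 and -0.49. Genes under 1 FPKM were also the least certain, with a median q-value of 0.00389 in the authors' deposited table against 4.61e-32 in the stratum of 100 FPKM or more.

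**Figure D1:**
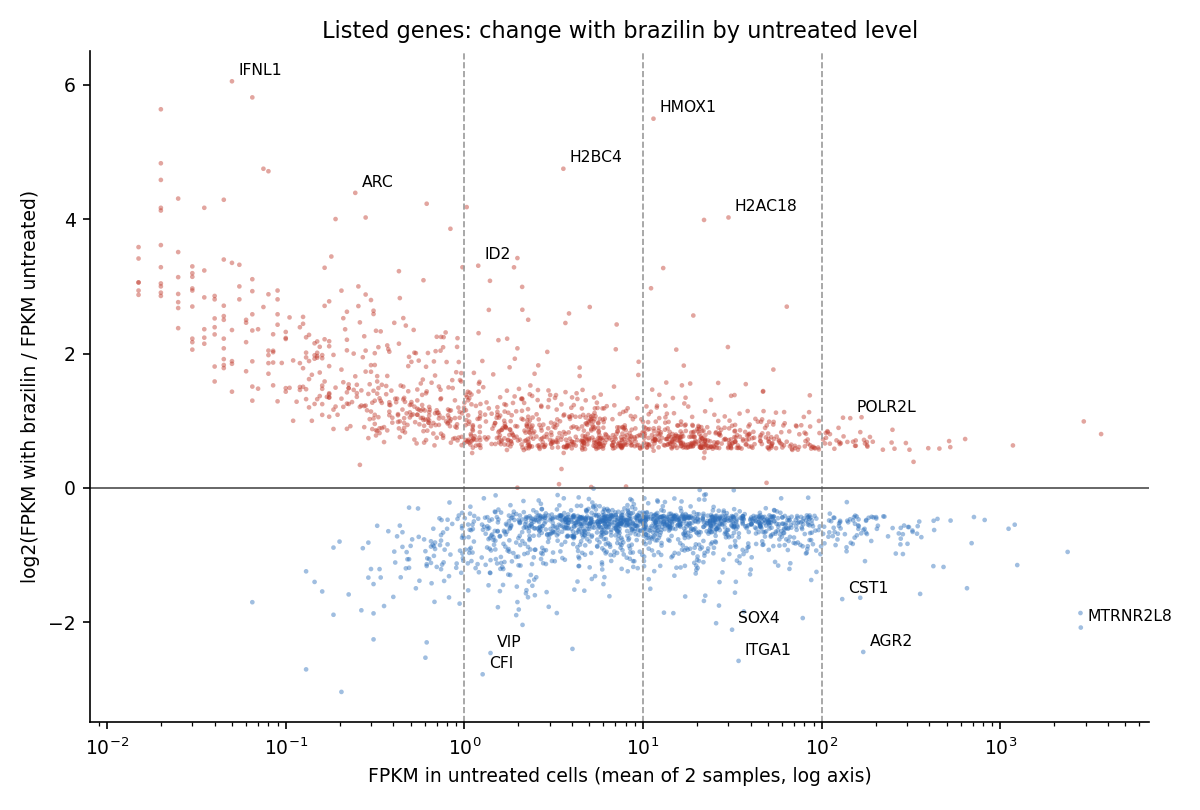
Each point is 1 of 2830 listed genes, with the FPKM of untreated cells on a log axis and the log2 ratio of brazilin over untreated on the vertical axis, red where higher and blue where lower with brazilin. Dashed lines divide the 4 strata. Rises reach above 6 on the log2 scale at the left and thin out to the right, and the band between the rises and the falls is nearly empty because genes that did not pass the authors' criteria are not listed.

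The slope with abundance rests in part on how genes are placed, because the untreated FPKM both sets the stratum and divides the ratio. When genes were placed by their FPKM with brazilin, 58.6%, 42.1%, 47.7% and 61.0% were higher from the lowest stratum to the highest. The top stratum then changed sides, with a median log2 ratio of 0.61. Placed by the mean of both groups, the shares were 73.0%, 42.7%, 41.7% and 47.5%. The lowest stratum had the largest share of higher genes under the untreated and the mean placing, but not under the placing by brazilin.

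**Figure D2:**
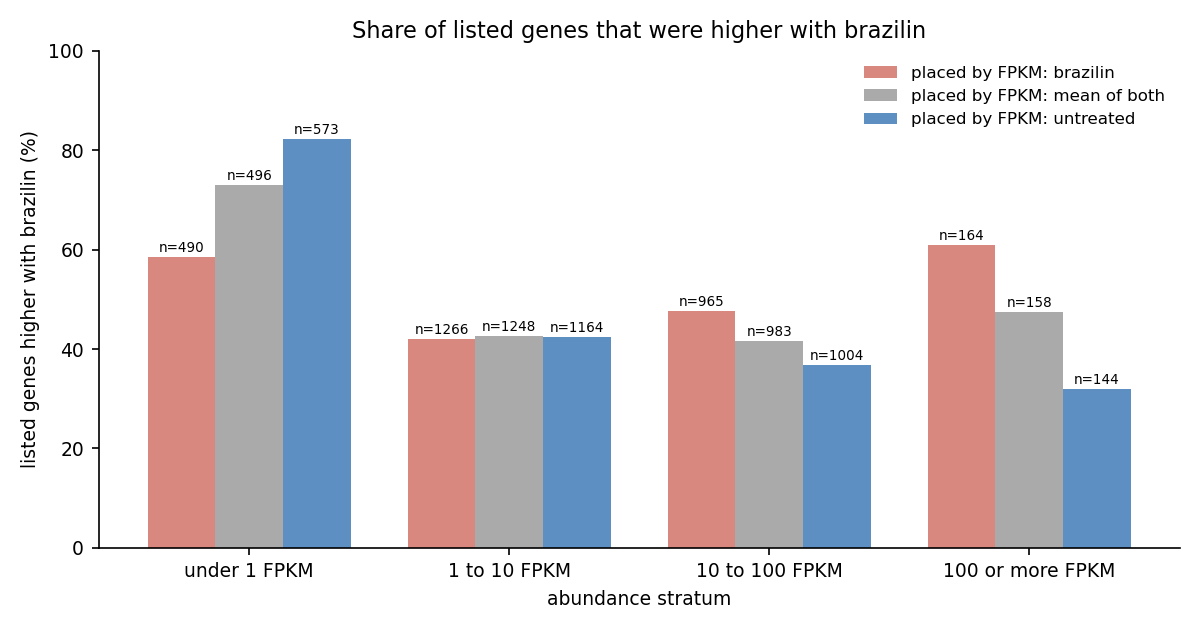
Bars give the percent of listed genes that were higher with brazilin in 4 abundance strata, with the number of genes above each bar. Colours mark whether a gene was placed by its FPKM with brazilin, by the mean of both groups or by its FPKM in untreated cells. The stratum under 1 FPKM is above 50% under every placing, and the stratum of 100 FPKM or more runs between 31.9% and 61.0%.

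Transcript length moved with direction in every stratum. The median length was 3542 bases over the 2865 genes with a matched GENCODE transcript. Of genes shorter than that 64.7% were higher with brazilin, and of the longer ones 30.9%. At 10 to 100 FPKM in untreated cells the shares were 57.6% for shorter and 14.2% for longer genes, and at 100 FPKM or more they were 41.6% and 9.52%. Higher genes of the top stratum had a median length of 1090.5 bases, against 2858 bases for the lower ones. What part length has in any result here was not tested. Of the shorter genes 35.3% were lower with brazilin, and of the longer ones 69.1%. The groups below are divided at the same 3542 bases into shorter and longer members.

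Among the most abundant genes, those at 100 FPKM or more in untreated cells, the 5 largest rises outside the best-known stress genes were all of genes for RNA synthesis or processing, except 1. DRAP1, a corepressor of transcription by RNA polymerase II, stood at 272 FPKM with brazilin and 132 in untreated cells. POLR2L, a small subunit shared by RNA polymerases I, II and III, stood at 297 and 144 FPKM. NHP2, a protein of the particles that guide RNA pseudouridylation, stood at 231 and 124 FPKM, and LSM7, of the ring that binds the end of U6 RNA, at 193 and 108 FPKM. XAGE1B, a cancer-testis antigen gene, stood at 453 and 249 FPKM and has a near-identical copy, so its reads may be divided between copies. Each of these 5 log2 ratios lay between 0.85 and 1.05. Outside the best-known stress genes, the highest untreated levels among the genes that were higher belonged to the ribosomal protein gene RPS15 (1823 FPKM with brazilin and 1175 in untreated cells) and SAA1, which encodes an acute phase protein (1052 and 635 FPKM).

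The falls in that stratum were larger. AGR2 (GRCh38.p14 chromosome 7, 16791811 to 16804999), an ER protein of the disulfide isomerase family, stood at 31.4 FPKM with brazilin and 171 in untreated cells. In the authors' deposited table its log2 fold change was -2.53, with a standard error of at most 0.0682. CST1, a secreted inhibitor of cysteine proteases, stood at 41.4 and 130 FPKM. MTRNR2L8 stood at 668 FPKM with brazilin and 2819 in untreated cells, MTRNR2L2 at 772 and 2807 FPKM and MTRNR2L9 at 52.9 and 164 FPKM. They belong to nuclear copies of the part of mitochondrial ribosomal RNA that holds the humanin reading frame. All 7 listed genes of this kind were lower, by a median of -1.75 and within the narrow range of -2.08 to -1.56 on the log2 scale. They were grouped after the values were seen, so the 52.2% of all listed genes that were lower is not a like background. Of the 7 genes 3 have near-identical copies. Because the members resemble both each other and the mitochondrial transcript, the authors' counting may have assigned the same fragments to several of them.

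At 10 to 100 FPKM the largest falls outside the MTRNR2L genes were in single genes of different function. ITGA1, the collagen-binding integrin alpha 1 chain (chromosome 5, 52787916 to 52959209), stood at 5.75 FPKM with brazilin and 34.2 in untreated cells. SOX4, a transcription factor gene of mesenchymal states, stood at 7.30 and 31.5 FPKM. ASB2, a substrate adaptor of a cullin ubiquitin ligase that targets filamins, stood at 6.35 and 25.6 FPKM, and LAMP3, a lysosomal membrane protein, at 4.06 and 14.8 FPKM. Filamin C itself (FLNC) was higher, at 36.2 FPKM with brazilin and 18.9 in untreated cells. Outside the best-known stress genes, the 5 largest rises in this stratum were all histone genes, led by H2AC18 at 490 and 30.1 FPKM, which has a near-identical copy.

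At 1 to 10 FPKM the largest rise outside the histone genes was that of ID2, an inhibitor of basic helix-loop-helix factors, at 11.8 FPKM with brazilin and 1.20 in untreated cells. In the authors' deposited table its log2 fold change was 3.22, with a standard error of at most 0.227. The largest falls were in CFI, complement factor I (0.185 and 1.27 FPKM), VIP, a neuropeptide (0.255 and 1.40 FPKM), OLAH, a thioesterase (0.765 and 4.03 FPKM), SYTL1, an effector of Rab27 in secretion (0.515 and 2.12 FPKM), and INHBE, an activin subunit (0.525 and 1.95 FPKM). Under 1 FPKM, where no fall met the minimum of 1 FPKM in the higher group, the largest rises outside the best-known stress genes were those of IFNL1, H2BC6, ARL14, ARC and H2BC11. ARC, a neuronal activity gene that encodes a capsid-like protein, stood at 5.15 FPKM with brazilin and 0.245 in untreated cells.

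Gene families were then read by name. Of 97 families in the list 71 had at least 5 listed members, 21 had 1 to 4 and 5 had none, and 836 listed genes belonged to at least 1 family. In 61 of the 71 both directions occurred. In 5 every listed member was higher and in 5 every listed member was lower. A family member that is not in the table has no value here, and the counts are over listed members only. No proteasome subunit was listed out of 58.

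**Figure D3:**
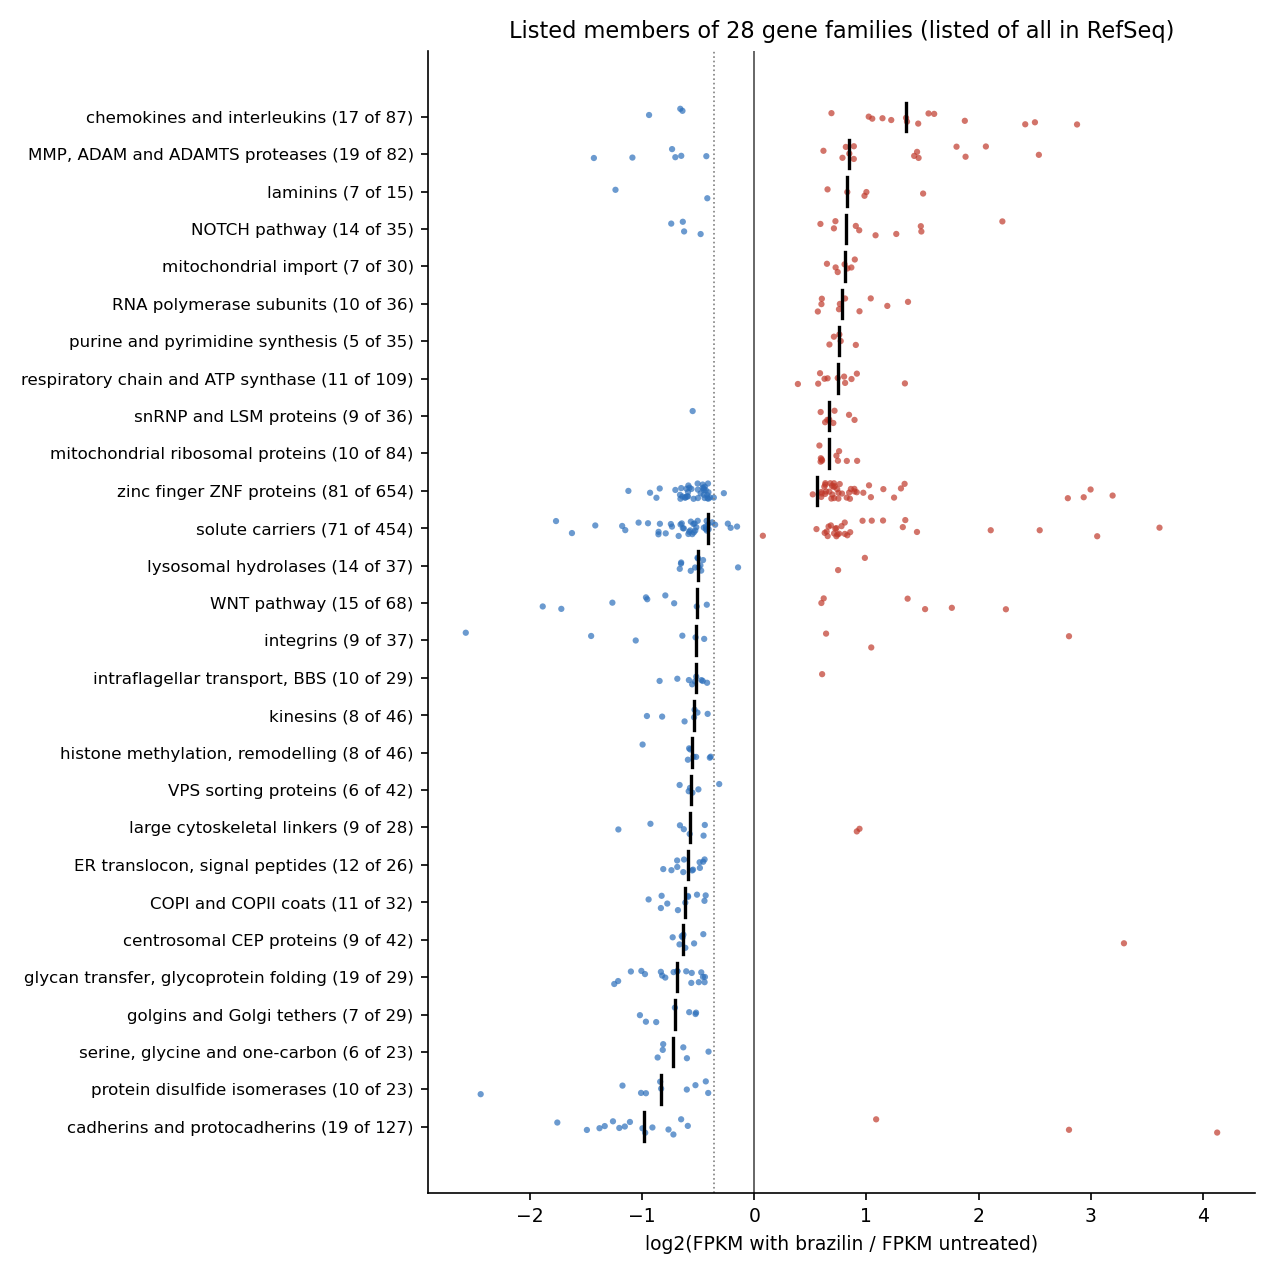
Points are the log2 ratios of listed genes in 28 families, red where higher and blue where lower with brazilin, with the number listed and the size of the family in brackets. Black bars are family medians and the dotted line is the median of all listed genes. Mitochondrial and RNA polymerase families lie wholly to the right of 0, and ER, coat, golgin and VPS families wholly to the left.

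Every listed gene of 3 families of nuclear genes for mitochondrial proteins was higher with brazilin. These were 10 of 84 mitochondrial ribosomal protein genes, with a median log2 ratio of 0.67, 11 of 109 respiratory chain and ATP synthase genes, with a median of 0.74, and 7 of 30 mitochondrial import genes, with a median of 0.81. Together they are 28 genes, against a background of 47.8% higher among all listed genes. All 28 are shorter than 3542 bases, where 64.7% were higher. Their median length is 1230 bases, so that class is not closely matched to them in length. The log2 ratios ran from 0.39 to 1.34. Their lower edge is set by listing, as every listed gene has a deposited log2 fold change of at least 0.5 in size. Of the 28 genes 1 passed 2-fold. That gene, UQCC5, encodes an assembly factor of complex III and stood at 43.9 FPKM with brazilin and 17.3 in untreated cells. ATP5MC1, of the ring that turns in ATP synthase, stood at 162 and 86.1 FPKM, and CYC1, cytochrome c1 of complex III, at 194 and 111 FPKM. MRPL12, of the large mitochondrial ribosomal subunit, stood at 136 and 72.2 FPKM, and MRPS26, of the small subunit, at 41.6 and 23.5 FPKM. Of the import genes, TIMM13 and TIMM8B, chaperones of the space between the membranes, stood at 53.2 and 28.6 FPKM and at 49.8 and 27.4 FPKM. TOMM5, of the outer membrane channel, stood at 192 and 108 FPKM. CYC1 was named after its values were seen.

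RNA polymerase subunit genes were higher in all 10 listed cases of 36, with a median log2 ratio of 0.79, against 47.8% of all listed genes. By their matched transcripts 9 of the 10 were shorter genes, a class with 64.7% higher. POLR2A, the catalytic subunit of polymerase II, stood at 80.5 FPKM with brazilin and 31.1 in untreated cells. Its log2 fold change in the authors' deposited table was 1.28, with a standard error of at most 0.057. The transcript matched to POLR2A has 2083 bases and was not checked for completeness, so its place among the 9 is uncertain. POLR1G, of polymerase I, stood at 18.7 and 8.21 FPKM. Of polymerase III, POLR3G and POLR3K had log2 ratios of 0.94 and 0.60, and both are named here with their values known. Of the snRNP and LSM proteins, the cores of the spliceosome and of RNA decay rings, 8 of 9 were higher, with a median of 0.67, and these 8 were the shorter members. SNRPA1 stood at 89.6 and 48.2 FPKM and SNRPC at 283 and 172 FPKM, while LSM8, the exception, stood at 2.59 FPKM with brazilin and 3.79 in untreated cells. All 5 listed genes of purine and pyrimidine synthesis were higher, with a median of 0.76, and 3 of them were shorter genes. Among them were DCTPP1, which clears modified deoxycytidine triphosphates (39.7 and 21.2 FPKM), and NME1, a nucleoside diphosphate kinase with a near-identical copy (315 and 186 FPKM).

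The route of secreted proteins went the other way. All 11 listed COPI and COPII coat and cargo genes of 32 were lower, with a median log2 ratio of -0.62, against 52.2% of all listed genes. Lists for the steps before the coats were assembled after the values were seen, and their direction is given as a description. All 12 listed genes of the ER channel and signal peptide removal of 26 were lower (median -0.59), as were 19 genes of sugar chain transfer and glycoprotein folding of 29 (median -0.69) and 10 disulfide isomerase and ER oxidation genes of 23 (median -0.84). Without repeats these are 51 genes. Of the 51, 18 were shorter and 33 longer genes. Because 3 of the 4 lists were assembled with the values known, their shared direction is not set against the share of all listed genes or the shares by length. Of the 11 coat and cargo genes, whose list is 1 of the 97, 9 were longer genes, a class with 69.1% lower, and 2 were shorter.

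Ordered along the route, SEC61A1, the pore of the ER channel, stood at 177 FPKM with brazilin and 284 in untreated cells, and TRAM1, beside the pore, at 91.5 and 153 FPKM. SEC11C, of the peptidase that removes signal peptides, stood at 41.8 and 73.5 FPKM. STT3A and STT3B, the catalytic subunits that transfer sugar chains, stood at 111 and 179 FPKM and at 83.7 and 135 FPKM. The log2 ratios of these 5 genes lay between -0.81 and -0.69. The lectin chaperones CANX and CALR stood at 390 and 690 FPKM and at 729 and 1111 FPKM. UGGT1, which marks misfolded glycoproteins for another round, stood at 10.97 and 22.05 FPKM. Among the largest falls in the folding group were those of the disposal arm, SEL1L, a scaffold of the ubiquitin ligase that draws misfolded proteins from the ER (39.3 FPKM with brazilin and 93.4 in untreated cells), and EDEM1, which trims mannose on such proteins (25.5 and 54.8 FPKM). The calnexin relative CLGN lay between them in ratio, at 17.3 and 40.1 FPKM. In the authors' deposited table the log2 fold change of SEL1L was -1.37, with a standard error of at most 0.0509. PDIA4, a disulfide isomerase, stood at 213 and 480 FPKM, and ERO1B, the oxidase that recharges these enzymes, at 7.28 and 14.7 FPKM. At the exit, the cargo receptors TMED10 and LMAN1 stood at 71.6 and 138 FPKM and at 24.1 and 43.0 FPKM. MIA3, which loads large cargo such as collagen, stood at 21.9 and 38.8 FPKM. STT3A, STT3B and UGGT1 were named after their values were seen.

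**Figure D4:**
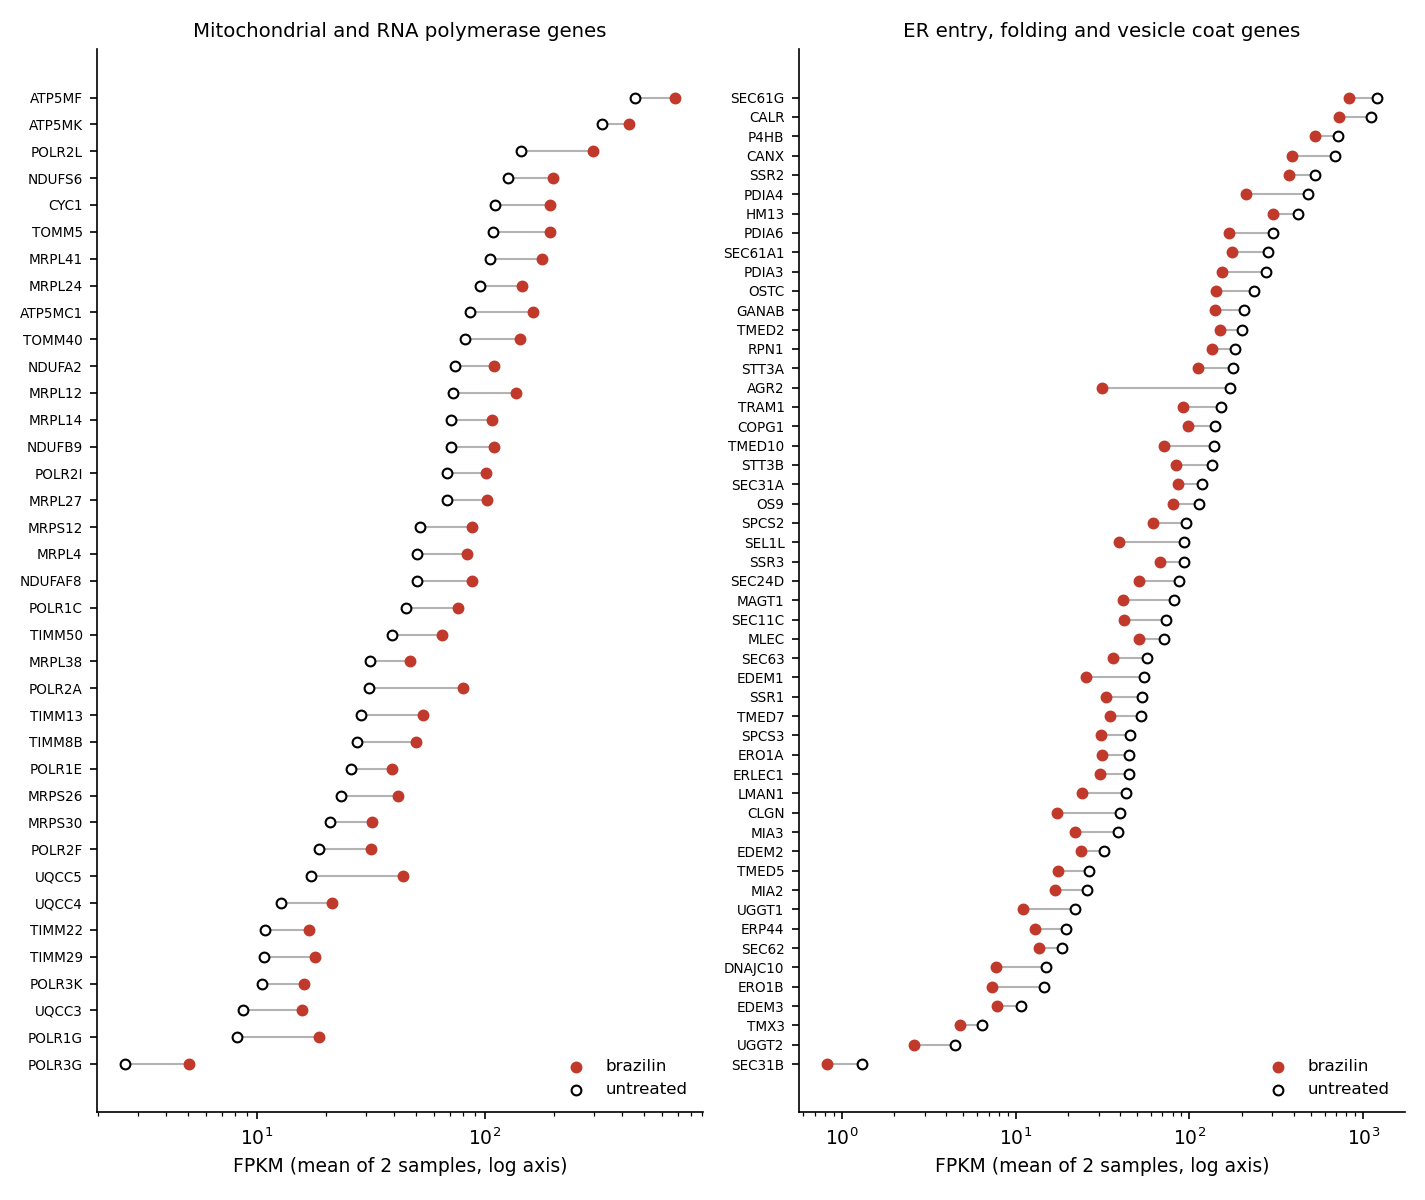
Filled points are the mean FPKM with brazilin and open points that of untreated cells, on log axes, each a mean of 2 samples. On the left every gene shown, of mitochondrial proteins and RNA polymerases, has its filled point to the right of the open one. On the right every ER and coat gene has it to the left, with AGR2 the furthest apart at 31.4 and 171 FPKM.

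Some promoters of these ER genes hold the ER stress element, CCAAT and CCACG with 9 bases of any kind between them, which is known to bind NF-Y and ATF6. It was searched on both strands in the 250 bases before the first start site given for each gene in RefSeq (GRCh38.p14), and 5191 of the genes have several. For CANX, with 4 sites, the site used lies 20273 bases inside the outermost start of the gene, and for the other genes shown it is the outermost start. It was in 22 of 27305 promoters, 0.0806%, and 11 of those belonged to listed genes. Of the 11 genes 8 were lower with brazilin, HSPA5, HSP90B1, CALR, CANX, ERO1B, FICD, SERP1 and TRIM5, against 52.2% of all listed genes. The element was in 0.67% of the promoters of lower genes and in 0.28% of those of higher genes. The other 3, FRG2, FRG2B and FRG2C, are 1 family of closely related genes and were higher at no more than 0.5 FPKM. The element is a match of letters and not a measured binding site, and a promoter without it says nothing of these factors. Whole windows are shown for a chaperone, a lectin and the oxidase, then the element of the other lower genes, with the fixed letters of the element in capitals, on the strand of the gene.
HSPA5 (chr9:125241344-125241593, minus strand): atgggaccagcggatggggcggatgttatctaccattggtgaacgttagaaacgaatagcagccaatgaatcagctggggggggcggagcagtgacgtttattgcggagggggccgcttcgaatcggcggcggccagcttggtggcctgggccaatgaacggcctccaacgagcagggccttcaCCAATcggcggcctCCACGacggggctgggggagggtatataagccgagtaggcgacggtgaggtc
CALR (chr19:12938359-12938608, plus strand): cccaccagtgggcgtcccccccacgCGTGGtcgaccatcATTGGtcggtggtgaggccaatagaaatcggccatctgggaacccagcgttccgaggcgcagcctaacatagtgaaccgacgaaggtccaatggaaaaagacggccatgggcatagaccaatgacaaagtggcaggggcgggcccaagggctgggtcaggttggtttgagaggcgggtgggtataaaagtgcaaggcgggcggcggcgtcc
ERO1B (chr1:236281959-236282208, minus strand): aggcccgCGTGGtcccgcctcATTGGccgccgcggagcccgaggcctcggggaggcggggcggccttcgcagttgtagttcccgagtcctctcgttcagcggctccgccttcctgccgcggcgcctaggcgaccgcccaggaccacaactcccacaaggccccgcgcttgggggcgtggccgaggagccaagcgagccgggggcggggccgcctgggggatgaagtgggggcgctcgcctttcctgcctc
CANX (chr5:179698778-179698796, plus strand): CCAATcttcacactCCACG
HSP90B1 (chr12:103930216-103930234, plus strand): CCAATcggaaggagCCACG
HSP90B1 (chr12:103930321-103930339, plus strand): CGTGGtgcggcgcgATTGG
FICD (chr12:108515123-108515141, plus strand): CCAATgggagtggcCCACG
SERP1 (chr3:150546710-150546728, minus strand): CGTGGagacagcgaATTGG
TRIM5 (chr11:5685115-5685133, minus strand): CGTGGagaaatgccATTGG

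The genes that carry these elements include the chaperones of the ER. HSPA5, the main ER chaperone, stood at 1230 FPKM with brazilin and 2379 in untreated cells, and HSP90B1, which alone among the lower genes has the element 2 times, at 561 and 1243 FPKM. FICD, which switches HSPA5 on and off by adding and removing AMP, stood at 11.6 and 21.3 FPKM, and SERP1, which protects new membrane proteins, at 59.4 and 92.2 FPKM. TRIM5, a sensor of viral capsids, stood at 9.63 and 13.2 FPKM. Within the 44 ER and coat promoters with a window, the element was in 3, or 6.82%, and the plain CCAAT box in 26, or 59.1%, against 33.0% of all promoters. The CCAAT box was also in 12 of 22 mitochondrial promoters (54.5%), whose genes were higher, in 39.0% of the promoters of all higher genes and in 35.7% of those of all lower genes.

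In the promoters of the mitochondrial genes, the NRF1-type motif, GCGC, then any base, then TGCGC, searched on both strands, was in 4 of 22 with a window (18.2%), against 5.53% of all promoters. Among all listed genes it was in 7.35% of those that were higher and 7.45% of those that were lower, so it did not follow direction in the table at large. ER and coat promoters held it in 15.9%. The ETS-type motif CCGGAAG was in 6 of the 22 (27.3%), against 8.82% of all promoters. It was in 13.1% of the promoters of higher genes, 10.6% of those of lower genes and 18.2% of the ER and coat promoters. The window of UQCC5, the mitochondrial gene with the largest ratio, is shown with the NRF1-type letters in capitals.
UQCC5 (chr3:52536355-52536604, plus strand): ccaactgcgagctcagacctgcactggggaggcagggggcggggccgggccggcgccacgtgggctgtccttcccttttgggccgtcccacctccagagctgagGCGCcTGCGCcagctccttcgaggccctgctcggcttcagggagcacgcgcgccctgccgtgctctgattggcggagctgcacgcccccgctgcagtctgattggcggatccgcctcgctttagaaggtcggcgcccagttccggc

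Beyond the ER, families of Golgi structure, endosomal sorting and large chromatin enzymes were also lower throughout. All 7 listed golgins and tethers of 29 were lower (median log2 ratio -0.71), with GOLGB1, the giant tether of COPI vesicles, at 9.95 FPKM with brazilin and 20.2 in untreated cells. All 6 listed VPS genes of 42 were lower (median -0.56), among them 4 VPS13 genes, whose proteins carry lipids between membranes. All 8 listed histone methyltransferase and remodeller genes of 46 were lower (median -0.56), with ATRX, a remodeller of repeated DNA, at 6.33 and 12.6 FPKM, and KMT2C, which methylates histones at enhancers, at 7.84 and 11.7 FPKM. The members of these families have long transcripts, with medians of 7772, 14336.5 and 10992.5 bases, and all but 1 golgin are longer genes. Of all longer genes 30.9% were higher and 69.1% lower. The lower share of longer genes was 72.6% at 1 to 10 FPKM in untreated cells and 85.8% at 10 to 100 FPKM. Other trafficking families were mixed, with 3 of 9 Rab, 3 of 5 ARF and ARL and 3 of 5 SNARE genes higher, against 47.8% of all listed genes. In each of them the 2 members under 1 FPKM in untreated cells were higher, where 82.2% of listed genes were. From 1 FPKM upward 1 of 7 Rab, 1 of 3 ARF and ARL and 1 of 3 SNARE genes were higher, where 39.3% of listed genes were. All 6 listed genes of serine, glycine and one-carbon metabolism were lower (median -0.72), 3 of them shorter and 3 longer genes. PSAT1, an enzyme of serine synthesis, stood at 82.5 FPKM with brazilin and 145 in untreated cells, and SHMT2, the mitochondrial enzyme that splits serine, at 207 and 322 FPKM.

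**Figure D5:**
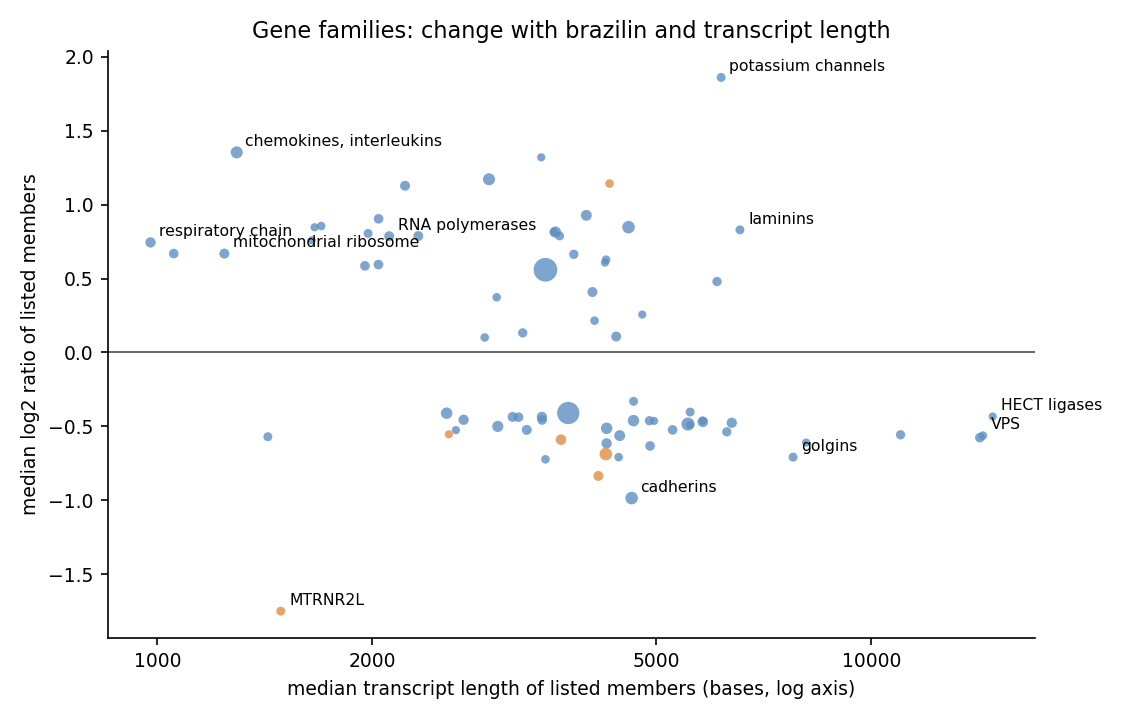
Each point is a family with at least 5 listed members, with the median transcript length of those members on a log axis and their median log2 ratio of brazilin over untreated on the vertical axis. Blue families come from the list of 97 and orange ones were assembled after the values were seen, and larger points have more members. Short families such as the respiratory chain lie above 0 and the longest, VPS and HECT ligases, below it, while MTRNR2L is short and lower and potassium channels and laminins are long and higher.

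Families of cell contact and the skeleton differed in direction. Of 19 listed cadherins and protocadherins 16 were lower, with a median log2 ratio of -0.99, against 52.2% of all listed genes. Of the 19, 18 were longer genes, a class with 69.1% lower, and 15 of those 18 were lower. CDH11, a mesenchymal cadherin, stood at 25.6 FPKM with brazilin and 57.1 in untreated cells. All 8 listed protocadherin beta genes, in a single cluster on chromosome 5 from 141172644 to 141249365, were lower, with PCDHB11 at 0.58 and 1.39 FPKM and PCDHB10 at 0.69 and 1.59 FPKM. All 6 listed gamma genes beside them were lower too. The gamma genes join their own first exon to shared last exons, and the beta genes resemble one another. Fragments may therefore be assigned to several members, and these are not separate observations. The 16 lower genes include these 8 and 6, so the counts above rest mainly on this region. The shares of 52.2% and 69.1%, which are of separate genes, are not a like background for them. The exceptions lay elsewhere in the genome, and PCDH7, at 3.25 FPKM with brazilin and 1.53 in untreated cells, was the most abundant of them.

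Of the large linkers between membranes and the skeleton 7 of 9 were lower, all 9 being longer genes, with SYNE1 of the nuclear envelope at 2.55 and 5.91 FPKM. Kinesins were lower in 7 of 8 cases, CEP centrosome genes in 8 of 9, and intraflagellar transport and BBS genes of the cilium in 9 of 10. Of the longer members 6 of 7 kinesins, all 5 CEP genes and all 4 cilium genes were lower, against 69.1% of all longer genes, and at 10 to 100 FPKM in untreated cells that share was 85.8%. Of the shorter members the 1 kinesin, 3 of 4 CEP genes and 5 of 6 cilium genes were lower, against 35.3% of all shorter genes. KIF20B, of the midbody, stood at 6.28 and 12.2 FPKM, CEP57 at 20.3 and 32.3 FPKM, and IFT80 at 4.81 and 8.64 FPKM. Laminins, all of them longer genes, were higher in 5 of 7 cases, and in all 3 cases under 1 FPKM in untreated cells, where 82.2% of listed genes were higher. LAMB3, a beta chain gene, stood at 105 and 59.4 FPKM, but LAMA3, an alpha chain gene, stood at 4.90 FPKM with brazilin and 11.6 in untreated cells. Collagens were higher in 5 of 8 cases and ephrins and Eph receptors in 3 of 5, against 47.8% of all listed genes. Under 1 FPKM in untreated cells all 4 collagens and both ephrin or Eph genes were higher. From 1 FPKM upward 1 of 4 and 1 of 3 were, where 39.3% of listed genes were. Tubulins were higher in 3 of 4 cases, and 2 of the 4 have near-identical copies. Both listed keratins were higher, of which KRT14 stood at 0.51 FPKM with brazilin and 0.05 in untreated cells.

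In the WNT pathway 6 of 15 listed genes were higher and 9 lower, near the shares of all listed genes. All 4 shorter members were higher, and 9 of 11 longer ones were lower. The ligand gene WNT10B stood at 3.63 FPKM with brazilin and 0.765 in untreated cells, and the secreted inhibitor gene DKK1 at 182 and 53.6 FPKM, while the ligand gene WNT5A was lower, at 0.245 and 0.475 FPKM. AXIN2, RNF43, NKD1, LGR5 and LGR6, which are known targets or feedback regulators of the pathway, were lower. AXIN2 stood at 4.98 and 8.18 FPKM, and the other 4 were under 1.40 FPKM in both groups. DKK1, also a known target and feedback inhibitor, was higher, so such genes did not share a direction. AXIN2, RNF43, NKD1, LGR5, LGR6 and WNT5A were named after their values were seen. In the NOTCH pathway 10 of 14 were higher (median 0.81). All 6 members under 1 FPKM in untreated cells were higher, where 82.2% of listed genes were, and 4 of the 8 from 1 FPKM upward, where 39.3% were. The higher ones included both ligand genes listed, DLL1 and DLL4, the receptor gene NOTCH1 (6.01 FPKM with brazilin and 3.99 in untreated cells) and all 5 listed HES and HEY repressors, with HES4 at 8.46 and 3.995 FPKM. The coactivators MAML2 and MAML3 and the DNA-binding partner RBPJ (47.5 and 66.2 FPKM) were lower, as was LFNG, which adds a sugar to the receptors (4.52 and 7.555 FPKM). NOTCH1 and RBPJ were named after their values were seen. Of the chemokines and interleukins 14 of 17 were higher (median 1.35), against 47.8% of all listed genes. Of the 14 shorter members 13 were higher, where 64.7% of all shorter genes were. Among them was CCL20, an attractant of dendritic cells and lymphocytes, at 12.9 and 2.28 FPKM.

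By the ratio of means, rises and falls did not enter the table on equal terms. The deposited log2 fold changes lie a median of 0.09 below the ratios of the deposited means, and all are at least 0.5 in size, in the authors' deposited table. By ratio, the smallest rises begin near 0.57 (1st percentile), while falls are listed up to -0.17 (99th percentile). For some genes the 2 measures lie further apart than that median. SLC38A1, for 1, has a ratio of -0.21 and a deposited log2 fold change of -0.60. Of the listed genes 6 have a deposited fold change below 0 and a ratio above it, by 0.0036 to 0.28. They are PDK3, FAM120C, PTAR1, RNF217, PRELID2 and SLC7A11, and their direction is uncertain. The sources used here do not say whether the libraries kept strand, and overlapping genes on opposite strands are therefore uncertain.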

How the data were processed

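RNA of 4 samples was compared, 2 with brazilin and 2 untreated. Per the submitters' processing notes, the tools were DESeq2, RSEM, Bowtie, StringTie and HISAT, with builds named as GRCh38, hg38 and mm10 (no version or role given). Per the file headers, the columns deposited for each gene are 2 FPKM means, 1 per group, with the authors' log2 fold change and their q-value. The FPKM are the authors' means and carry no error. The design allowed a test on values per sample, which the table does not hold, so no test was run and the ratio of means is a description. The standard error quoted from the authors' deposited table is the absolute log2 fold change divided by the normal quantile of its q-value, an upper bound if the test was an unshrunken Wald test. A q-value of 0 (7 genes) was taken as 1e-300.

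Gene IDs matched the RefSeq table of GRCh38.p14 for 2879 genes (99.8%), which gave names and positions. Transcript length is that of the longest matched protein-coding GENCODE 29 transcript (99.3% of genes), which was not checked for completeness. Coding sequences were compared with BLAST+ 2.17.0, at 98% identity over 80% of the length, and 75 listed genes have such a copy. The code was tested on simulated data. Python 3.11.15, pandas 2.3.3 and matplotlib 3.10.9 were used.

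Families and members were chosen with earlier results of these data known. Named genes were the 5 largest rises and falls in each stratum, reaching 1 FPKM in either group and outside 70 well-known stress genes, the 3 largest ratios of each family with at least 5 members, the 5 most abundant in each direction, and the most abundant with opposite signs. Family members, element-bearing genes and markers outside these were named after their values were seen. Alternatives were the deposited fold change, a centred ratio, pseudocounts, filters on FPKM, q and fold, and other placing of strata. The split by transcript length, subgroups within families and 6 gene lists were added after the data were seen. Some genes and 1 family are not reported here.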

Additional observations from a re-analysis of the deposited data

How the results depend on the processing

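No paired analysis was possible because the table holds group means only, and for the same reason leaving out each replicate was not run. Of 132 values of the main results under 12 other settings 90 stayed close, 40 moved and 2 reversed. With the deposited fold change the stratum medians were 1.24, -0.54, -0.55 and -0.58, and with the ratio shifted by its median difference 1.24, -0.50, -0.53 and -0.58. A pseudocount of 0.1 FPKM gave 1.03 in the lowest stratum. A pseudocount of 1 FPKM gave medians of 0.36, -0.30 and -0.42 in the lower 3 strata, and 174 and 70 genes at least 2-fold higher and lower. Among genes that reached 1 FPKM in either group 360 genes were at least 2-fold higher, and the lowest stratum was 100% higher, which the filter forces. At q under 0.01 its median was 1.497, and at q under 0.001 it was 1.53, with 345 genes at least 2-fold higher. With a deposited fold change of at least 1, 533 genes were higher and 277 lower, the shares in the strata included 86.1%, 47.0% and, at 100 FPKM or more, 0%, and the medians were 1.67, -0.90, -0.97 and -1.18. Placed by brazilin FPKM, the shares of the strata under 1, at 10 to 100 and at 100 FPKM or more were 58.6%, 47.7% and 61.0% (reversed), with medians of 0.89, -0.33 and 0.61 (reversed). Placed by the mean of both they were 73.0%, 41.7% and 47.5%, with medians of 1.24, -0.42 and -0.43. In the lowest quartile of untreated FPKM the share was 76.4% and the median 1.16. The cause of these shifts was not tested beyond the filters' own construction.

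Of 623 values of the 71 families 569 stayed close, 32 moved and 22 turned to the other side of 50% higher, and those reported here follow. Among genes that reached 1 FPKM in either group these were collagens (40% higher), potassium channels (0%), TNF ligands and receptors (42.9%) and cytokine receptors (45.5%). At q under 0.01 TNF (42.9%) and cytokine receptors (45.5%) turned, and at q under 0.001 kelch-like adaptors (33.3%), collagens (40%), TNF (33.3%) and cytokine receptors (40%). With a deposited fold change of at least 1, which leaves few members, CEP proteins, Rab GTPases, MHC, forkhead factors and serpins stood at 100% higher, P450 at 75%, BMP and TGF-beta at 71.4%, RNF ligases and calcium, sodium and TRP channels at 66.7%, solute carriers at 56.3% and TNF at 33.3%.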

Other observations

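Genes of the circadian clock, a list assembled after the values were seen, had 6 of 20 members in the table, 4 of them higher. Of all listed genes 47.8% were higher, which is not a like background for a list chosen with the values known. NOCT, which removes a phosphate from nicotinamide dinucleotides, stood at 63.9 FPKM with brazilin and 15.3 in untreated cells, the period gene PER1 at 15.2 and 5.80 FPKM, and the repressor NR1D1 at 40.7 and 17.0 FPKM. CRY2, also a repressor, stood at 7.95 and 3.90 FPKM. RORA, which acts against NR1D1 at the same sites, stood at 0.295 FPKM with brazilin and 0.435 in untreated cells, and TEF at 3.63 and 4.87 FPKM. Samples were taken at 1 time only, 48 h, so nothing of a rhythm can be read.

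Among the 71 listed solute carriers 30 were higher, against 47.8% of all listed genes. The division into the SLC25 group and the others was made with the values known, so its counts are not set against that share. The mitochondrial carriers of the SLC25 group were higher in 10 of 15 cases, 6 of 8 among shorter and 4 of 7 among longer genes, with a median log2 ratio of 0.66, and the other carriers in 20 of 56 cases, with a median of -0.43. SLC25A4, an adenine nucleotide carrier, stood at 12.5 FPKM with brazilin and 7.91 in untreated cells. Median lengths were 3120 bases in the SLC25 group and 3849.5 bases in the others. SLC6A8, the creatine transporter, stood at 8.08 and 2.96 FPKM, and the organic anion transporter SLCO4C1 at 0.87 and 2.97 FPKM. The difference between the groups of carriers was not tested, and SLC25A4 was named after its values were seen.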
